A study of Mus musculus with 17 samples.

Results

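CD8 T cells primed by liver sinusoidal endothelial cells (LSEC) were compared with naive CD8 T cells on 9 of the study's 17 microarrays. The sample titles put samples 4, 7, 14 and 15 in the LSEC-primed group and samples 1, 2, 11, 12 and 13 in the naive group. All cells came from OT-I mice, which carry a transgenic T cell receptor for an ovalbumin peptide, on a C57Bl/6 background at an age of 2 to 6 months. LSEC-primed cells were recovered from a coculture with LSEC, and naive cells were isolated from spleen. The cell type label of LSEC-primed sample 4 says LSEC-primed, whereas that of samples 7, 14 and 15 says Tpm, which the series title writes out as partial memory T cells. Values of 5 effector samples (Teff), activated by dendritic cells, and of 3 memory samples are set beside them at the end. The source of the effector samples is a coculture with splenic dendritic cells for 4 and spleen for sample 8, and memory cells came from spleen 3 months after infection with Listeria monocytogenes OVA. The labels give neither the length of the coculture nor the source of each replicate. The p-values below therefore measure only the spread between these samples, which may be technical.

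LSEC line the capillaries of the liver, take up antigen from the blood and present it on MHC class I to passing CD8 T cells, and they are known in the liver for inducing tolerance rather than cytotoxicity. Naive CD8 T cells are held in a resting state by transcription factors such as KLF2 and the FOXO family, recirculate through lymph nodes with CCR7, and survive on interleukin 7. Priming through the T cell receptor ends that state, starts growth and division, and installs new receptors, cytokines and inhibitory molecules that differ with the cell that presents the antigen.

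Values are log2 normalised intensities of 1 probe per gene, and 1 unit is a 2-fold difference in intensity. A gene was called when its adjusted p was under 0.05 in limma, with Benjamini-Hochberg adjustment over all 23699 features. A probe was taken as above background on an array when its intensity exceeded a level set from the dim probes of that array. The mean intensity was 233.6 to 356.4 on the LSEC-primed arrays and 235.1 to 402.2 on the naive arrays, with 28.63% to 31.53% and 27.60% to 33.47% of probes above background. The T cell identity of both groups was checked on markers: Cd8b1 had 13.73 ± 0.17 in LSEC-primed and 13.83 ± 0.17 in naive cells (SD, n = 4 and 5), and Cd3d, Cd3e and Cd3g were above background on all 9 arrays. Of 8 tested CD8 T cell markers 2 were called higher in LSEC-primed cells and none lower (25%, against 15.8% of all genes). Their differences ran from -0.99 to 0.56. The probes for Cd8a and Cd5 were at background on nearly every array and carry no information. LSEC-primed sample 14 stood apart from the other LSEC-primed arrays in transcripts of macrophages and dendritic cells, described with the marker lists below. Values without it are given beside the results it moved most.

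The test covered 16462 named genes and called 2601 (15.8%), with 1653 gains (10.0%) and 948 losses (5.76%) in LSEC-primed cells. For 2565 genes (15.6%) no LSEC-primed value fell within the naive range or beyond its other end, and 2106 of these were called. The median difference over all named genes was 0.01. A set of 173 genes lay above background on all 4 LSEC-primed arrays and on no naive array, and 165 of these were called. In the other direction 34 genes lay above background on all 5 naive arrays and on no LSEC-primed array, and 32 were called. The median SD per gene was 0.1545 in LSEC-primed and 0.1435 in naive samples, and 57.9% of genes had the larger SD in LSEC-primed samples. When arrays were scaled to a common median instead of quantile normalised, 861 genes were called, 622 of them higher. Without LSEC-primed sample 14 and naive samples 1 and 11 together, the arrays with the most macrophage and MHC class II signal, 1709 genes were called.

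**Figure D1:**
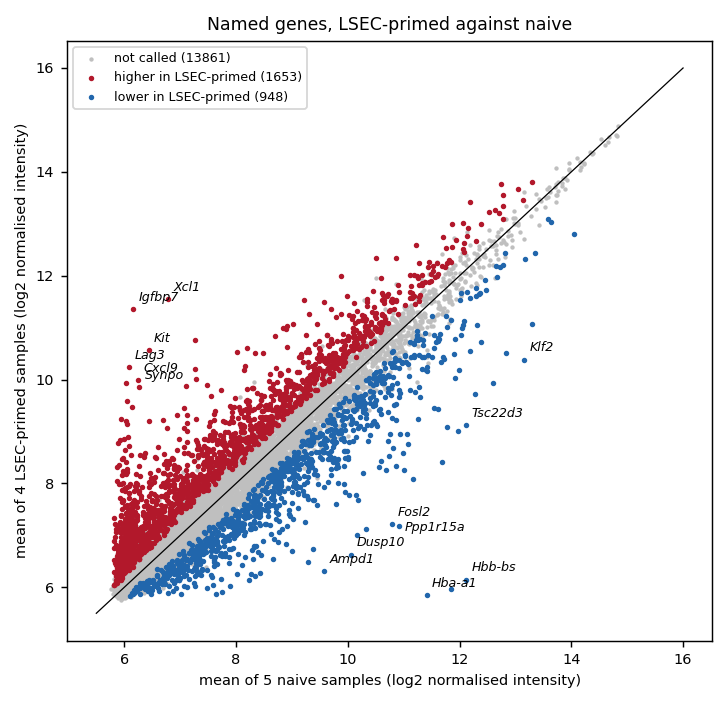
Mean log2 normalised intensity of each named gene in the 4 LSEC-primed samples (vertical axis) against the 5 naive samples (horizontal axis), with called genes in red (1653 higher in LSEC-primed cells) and blue (948 lower) and the line of equality in black. Xcl1 and Igfbp7 lie farthest above the line, and the haemoglobin genes Hbb-bs, Hbb-bt (not labelled) and Hba-a1 farthest below it.

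Among genes above background on all 9 arrays, the largest gain was that of Xcl1, a lymphocyte chemokine that attracts cross-presenting dendritic cells. Xcl1 had 11.64, 11.42, 11.74 and 11.42 in LSEC-primed samples 4, 7, 14 and 15, against 7.08, 6.47, 7.28, 6.73 and 6.33 in naive samples 1, 2, 11, 12 and 13. The LSEC-primed values lay within 0.4 of each other and more than 4 above every naive value, and Xcl1 rose by 4.78 (SE 0.30, adjusted p = 2.65e-08 by limma). Hivep3, a zinc finger protein known in mice to restrain bone formation and to act in T cells, rose by 3.48, and Endod1, an endonuclease-domain protein, rose by 2.94. Casp1, the protease that activates interleukin 1 and interleukin 18, had 9.75, 9.99, 10.14 and 9.60 in LSEC-primed samples, against 7.33, 7.22, 7.44, 7.04 and 6.48 in naive samples, and rose by 2.77. Litaf, an endosomal protein, rose by 2.51, and the claudin Cldn10 rose by 2.41. Rps27l, a ribosomal protein homologue induced by p53, was among the genes with the smallest p, with a gain of 1.85 (SE 0.09, adjusted p = 1.99e-09 by limma).

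Genes that were near background in naive cells included the inhibitory receptor Lag3, which binds MHC class II, and Kit, the receptor for stem cell factor. Lag3 had 9.89, 9.61, 10.41 and 11.06 in LSEC-primed samples, against 6.31, 5.98, 6.37, 5.94 and 5.84 in naive samples, where 2 arrays lay above background. Kit had 9.92, 10.25, 11.77 and 10.33 in LSEC-primed samples, against 6.62, 6.21, 6.94, 6.24 and 6.17 in naive samples. For both genes the lowest LSEC-primed value was about 3 above the highest naive value, and sample 14 was the highest of the 4 for Kit. Synpo, an actin-bundling protein best known from kidney podocytes, rose by 3.58 (SE 0.24), with values between 9.44 and 10.07 in LSEC-primed samples and between 6.11 and 6.44 in naive samples. Cables1, a cyclin-dependent kinase adaptor, had 9.37 to 9.54 in LSEC-primed samples and no naive array above background, and was at least 8.94-fold higher. Serpina3f, a serine protease inhibitor, was at least 7.42-fold higher on the same terms. A fold is given as "at least" where no array of the lower group was above background, and sets the mean of the higher group against the background level of each lower array.

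Among genes above background on all 9 arrays, Ppp1r15a and Fosl2 had the largest losses, and the haemoglobin genes are taken up with the marker lists. Ppp1r15a, the regulatory subunit that directs protein phosphatase 1 to eIF2alpha, had 7.06, 6.73, 7.45 and 7.46 in LSEC-primed samples, against 11.63, 10.79, 11.01, 11.10 and 10.07 in naive samples, and fell by 3.74 (SE 0.44). Fosl2, a subunit of the transcription factor AP-1, had 7.02 to 7.41 in LSEC-primed and 10.53 to 10.98 in naive samples. Neither gene came near an overlap between the groups. Dusp10, a phosphatase that inactivates JNK and p38, had the smallest adjusted p of all named genes (1.99e-11 by limma) and fell by 3.43 (SE 0.11). It had 6.45, 6.63, 6.78 and 6.63 in LSEC-primed samples, against 10.16, 9.74, 9.99, 10.39 and 10.00 in naive samples, a gap of almost 3 between the nearest values. Ampd1, an AMP deaminase, fell by 3.27 and was above background on 1 LSEC-primed array. Crem, a cyclic AMP-responsive transcription factor, fell by 3.16, the splicing kinase Clk1 fell by 3.08, Gch1, the first enzyme of tetrahydrobiopterin synthesis, fell by 2.97, and the transcription factor Ets2 fell by 2.20. Cd163l1, a scavenger receptor, fell by 3.20 (SE 0.65), a call that ended without samples 14, 1 and 11 together (adjusted p = 0.05399 by limma).

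**Figure D2:**
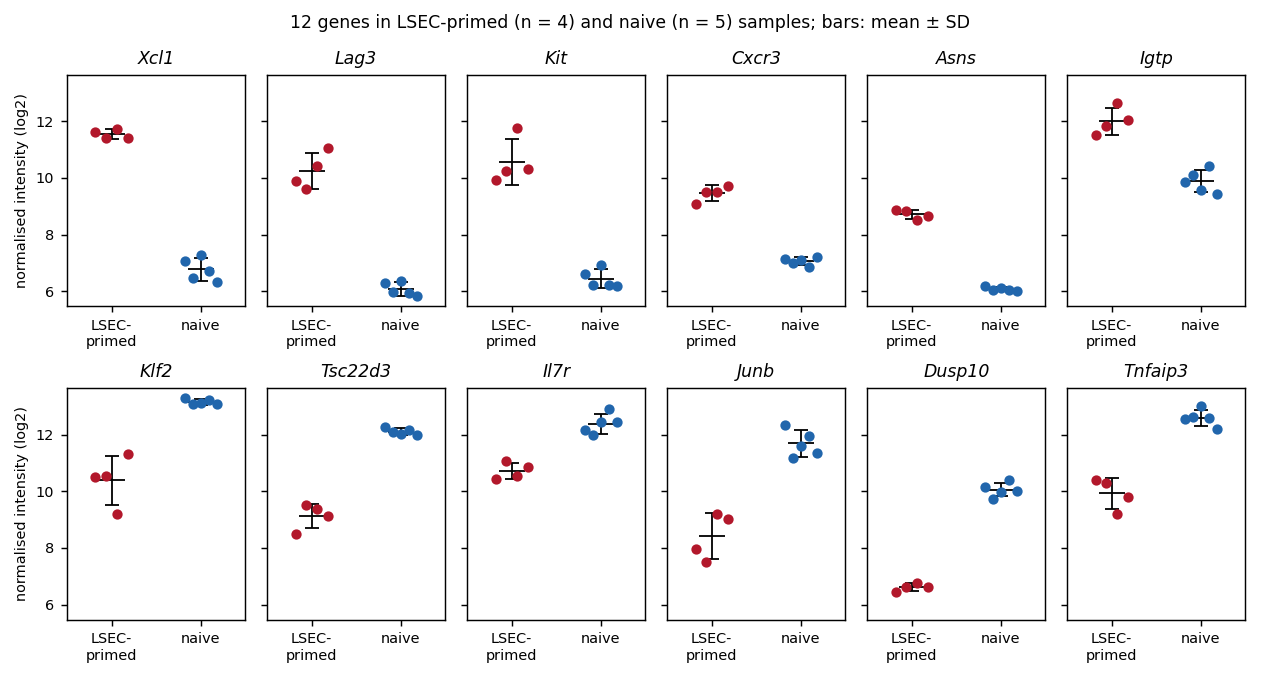
Log2 normalised intensity of 12 genes in each of the 4 LSEC-primed (red, left) and 5 naive (blue, right) samples, with mean ± SD in black. The upper row holds genes that rose in LSEC-primed cells and the lower row genes that fell, and in none of the 12 do the groups overlap.

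Resting-state genes fell in LSEC-primed cells. Of 20 tested quiescence factors of naive T cells 12 fell and 1 rose, against 5.76% and 10.0% of all genes, and the median of the list was -0.53 (0.01 over all genes). With median scaling 6 fell and 1 rose. Tsc22d3, a glucocorticoid-induced inhibitor of activation also called GILZ, had 8.51, 9.50, 9.36 and 9.13 in LSEC-primed samples, against 12.27, 12.10, 12.01, 12.16 and 11.99 in naive samples. It fell by 2.98 (SE 0.16, adjusted p = 2.77e-09 by limma). Klf2, which maintains quiescence and the expression of lymph node homing receptors, had the largest SD of the list among LSEC-primed samples: 10.49, 10.54, 9.19 and 11.31, against 13.28, 13.08, 13.11, 13.24 and 13.08 in naive samples. Sample 14 was lowest and sample 15 highest, and both lay well under the naive values. Klf3, a related repressor, fell by 2.13, and Lef1, a transcription factor of naive and stem-like T cells, fell by 1.29. Id3, an inhibitor of E proteins kept by memory precursors, was the member that rose, by 1.06 (SE 0.18, adjusted p = 0.000543 by limma).

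Of 14 tested homing and survival receptors of naive cells 7 fell and 1 rose, with a median of -0.80. Ccr7, the lymph node homing receptor, had 8.74, 9.34, 8.76 and 8.46 in LSEC-primed samples, against 11.04, 10.33, 10.71, 9.95 and 9.76 in naive samples. The groups did not overlap, though the nearest values lay within 0.5, and Ccr7 fell by 1.53 (SE 0.29, adjusted p = 0.0015 by limma). Il7r, the interleukin 7 receptor alpha chain, fell by 1.66 (SE 0.25), a call that ended with median scaling. Cxcr4, the receptor for the chemokine CXCL12, fell by 2.31 to 6.69 ± 0.13 in LSEC-primed cells, against 9.00 ± 0.48 in naive cells. Il6ra, the interleukin 6 receptor, fell by 2.01, and Ramp1, a subunit of the CGRP receptor, fell by 2.11. Cd27, a costimulatory receptor, rose by 0.75, a call that ended with median scaling. Of 15 costimulatory receptors 3 rose and 4 fell (46.67%, against 15.8% of all genes). The activation-induced receptor Tnfrsf9 (4-1BB) rose by 1.69, while Cd28 fell by 1.62 and Slamf1 by 1.30. The call of Cd28 ended without samples 14, 1 and 11 together (adjusted p = 0.123 by limma).

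Immediate-early genes are those that respond within minutes to stimulation. Of 15 tested AP-1 and immediate-early genes 8 fell and 1 rose (median -0.65), 6 fell with median scaling or without LSEC-primed sample 14, and 3 fell without samples 14, 1 and 11 together. Junb had 7.96, 7.50, 9.20 and 9.01 in LSEC-primed samples, against 12.35, 11.19, 11.61, 11.95 and 11.34 in naive samples, and fell by 3.27 (SE 0.45, adjusted p = 8.21e-05 by limma). Ier3, a stress-response gene that protects from apoptosis, was the exception and rose by 2.10, with 8.39 to 8.99 in LSEC-primed and 6.31 to 6.84 in naive samples. Of 13 tested MAP kinase phosphatases and Sprouty proteins 4 fell and 1 rose. Beside Dusp10, the ERK phosphatase Dusp5 fell by 2.51 (SE 0.12) and Dusp1 fell by 2.57 (SE 0.44), while Dusp6, the cytoplasmic ERK phosphatase, rose by 1.29 (SE 0.28). Dusp1 was lowest in LSEC-primed sample 14, at 8.68, against 9.96 to 10.25 in samples 4, 7 and 15 and 11.75 to 12.69 in naive samples.

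The promoters of Ppp1r15a and Dusp1 are printed because they were the called members of these lists with a full cyclic AMP response element, TGACGTCA, in the RefSeq window from 250 bases before to 50 bases after the start. In these windows, of build GRCm38.p6, the element is in capitals, and the sequences run 5′ to 3′ along the gene's strand, which is the minus strand for both, at chr7:45526219-45526518 for Ppp1r15a and chr17:26508423-26508722 for Dusp1. The element was found on either strand in the windows of 384 of 13186 tested genes (2.91%), and in 1 of 14 AP-1 and immediate-early genes and 1 of 11 MAP kinase phosphatase genes with a window. Early response factors of the T cell receptor, taken up below, were searched too. It was in 1 of their 10 windows, that of a called gene that fell, which is not printed. The match is a description of the letters and not of a bound site.
Ppp1r15a: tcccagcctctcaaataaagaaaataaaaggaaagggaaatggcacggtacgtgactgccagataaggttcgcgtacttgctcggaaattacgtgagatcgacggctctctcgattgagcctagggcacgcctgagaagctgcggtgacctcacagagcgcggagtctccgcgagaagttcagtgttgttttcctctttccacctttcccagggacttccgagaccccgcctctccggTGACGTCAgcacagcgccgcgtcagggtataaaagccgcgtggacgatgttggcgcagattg
Dusp1: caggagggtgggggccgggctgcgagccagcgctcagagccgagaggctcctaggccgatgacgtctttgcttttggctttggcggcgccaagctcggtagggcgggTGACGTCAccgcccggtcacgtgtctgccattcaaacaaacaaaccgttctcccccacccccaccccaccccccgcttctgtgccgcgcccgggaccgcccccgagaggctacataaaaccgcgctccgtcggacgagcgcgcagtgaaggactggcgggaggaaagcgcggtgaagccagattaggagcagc

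Of 14 tested regulators of nuclear factor kappa B 5 fell and none rose (median -0.56), with 3 falling under median scaling and 3 without samples 14, 1 and 11 together. Tnfaip3, the ubiquitin-editing inhibitor A20, had 10.39, 10.30, 9.20 and 9.81 in LSEC-primed samples, against 12.55, 12.62, 13.01, 12.58 and 12.21 in naive samples, and fell by 2.67 (SE 0.40, adjusted p = 0.000195 by limma). The highest LSEC-primed value, that of sample 4, was well below the lowest naive value, that of sample 13. Map3k14, the kinase NIK of the alternative pathway, fell by 1.49 (SE 0.11), and the subunit Rel fell by 0.93, a call that ended without the same 3 samples (adjusted p = 0.0796 by limma).

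Not every gene of the T cell receptor response was lower. Of 16 tested early response factors 4 rose and 4 fell (median 0.17). Egr3, a zinc finger factor that limits T cell activation, had 10.89, 10.81, 10.19 and 10.53 in LSEC-primed samples, against 7.77, 8.83, 8.62, 8.02 and 7.73 in naive samples, and rose by 2.41 (SE 0.29, adjusted p = 1.76e-05 by limma). Irf8, a transcription factor of myeloid cells that is also induced in activated CD8 T cells, rose by 2.31, with its highest value, 9.69, in sample 14, and by 2.10 without it. The orphan nuclear receptor Nr4a2 fell by 1.75 (SE 0.22). Myc, the driver of T cell growth, was at or near background in both groups, with 6.34 ± 0.24 in LSEC-primed and 6.15 ± 0.16 in naive cells (adjusted p = 0.503 by limma). In the list for the receptor complex and proximal signalling, 2 of 18 tested genes rose, Cd3d and Cd3g, and none fell. Both calls ended with median scaling, and the share of 11.1% was below the 15.8% of all genes.

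Inhibitory receptors were split. Of 17 tested inhibitory receptors and ligands 5 rose and 2 fell (median 0.05), and 4 rose and none fell with median scaling. Cd160, a receptor for HVEM on CD8 and NK cells, had 11.05, 11.13, 10.49 and 11.23 in LSEC-primed samples, against 8.92, 9.42, 8.74, 8.94 and 8.45 in naive samples, and rose by 2.08 (SE 0.17, adjusted p = 3.64e-07 by limma). Cd200, a ligand that inhibits myeloid cells, rose by 2.19, and Nt5e, the ectoenzyme CD73 that makes adenosine, rose by 1.40. Vsir (VISTA) fell by 1.51, to 8.51 ± 0.31 in LSEC-primed cells, against 10.01 ± 0.13 in naive cells, a call that ended with median scaling. The probe for Pdcd1 (PD-1) was at background on all 4 LSEC-primed arrays and above it on 2 naive arrays, so no level can be given. Ctla4, named after its values were seen, had 11.33 to 12.54 in LSEC-primed and 9.66 to 10.89 in naive samples with an adjusted p of 0.0868 by limma. Among 12 ubiquitin ligases and diacylglycerol kinases linked to anergy 2 rose and 2 fell. The ligase Cblb rose by 1.25 (SE 0.25), a call that ended with median scaling, and the Notch-pathway ligase Dtx1 fell by 2.63 (SE 0.21), with 6.22 to 7.23 in LSEC-primed and 8.84 to 10.01 in naive samples.

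Of 13 tested genes of cytotoxic granules and death ligands 3 rose and 1 fell, against 10.0% and 5.76% of all genes. None of the 3 gains remained with median scaling. They were also sensitive to single arrays: none remained without naive sample 13, and 1 when LSEC-primed sample 7 or 14 or naive sample 1 was left out. Gzmm, granzyme M, fell by 0.99 (SE 0.11), a call that ended with median scaling. Prf1 (perforin) had 9.85, 9.60, 8.28 and 8.68 in LSEC-primed samples, against 10.46, 10.34, 9.94, 9.12 and 9.40 in naive samples, overlapping groups with an adjusted p of 0.271 by limma. Gzmb was at background on all 9 arrays, and Ifng (interferon gamma) was above background on 1 LSEC-primed and 4 naive arrays (difference -0.34, SE 0.20, adjusted p = 0.39 by limma). Of 16 cytokine and chemokine genes 4 rose and 2 fell (37.5%, against 15.8% of all genes). Beside Xcl1, the chemokine Ccl5 fell by 1.91, with 8.10, 8.87, 9.60 and 8.69 in LSEC-primed samples, against 10.54 to 10.87 in naive samples. Mif rose by 1.02, a call that ended with median scaling, and Tnfsf11 (RANKL) fell by 1.09.

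Among trafficking receptors, Cxcr3, which guides activated T cells into inflamed tissue, had 9.07, 9.51, 9.52 and 9.73 in LSEC-primed samples, against 7.14, 7.01, 7.09, 6.86 and 7.22 in naive samples, and rose by 2.39 (SE 0.20, adjusted p = 4.17e-07 by limma). The LSEC-primed values were all above 9 and the naive values all below 7.3. It was the only called gain among 12 chemokine receptors, and Ccr7 and Cxcr4 were the losses. Klrk1, the activating receptor NKG2D, rose by 2.77 (SE 0.17) and led 3 gains among 8 killer lectin-like receptors, the other 2 of which, Klrb1c and Klrd1, ended with median scaling and without any 1 of LSEC-primed samples 4 and 7 and naive sample 11, with adjusted p up to 0.097 for Klrb1c and 0.0804 for Klrd1 by limma. Klrb1c also ended without LSEC-primed sample 15 or naive sample 12 or 13, and Klrd1 without naive sample 1. Cd44, the hyaluronan receptor and activation marker, had 8.18, 7.86, 8.76 and 7.96 in LSEC-primed samples, against 7.26, 7.45, 7.28, 7.02 and 7.01 in naive samples, and rose by 0.99 (SE 0.21). Cd69, an early activation marker that retains cells in tissue, fell by 1.25 (SE 0.21), and both calls ended with median scaling, that of Cd44 also without samples 14, 1 and 11 together. Of 15 integrins and adhesion receptors 2 rose and none fell. The 13.3% called was below the 15.8% of all genes, and neither call stood with median scaling. Itgae, the CD103 chain, had 11.87, 12.26, 13.54 and 11.98 in LSEC-primed samples and 11.30 to 12.07 in naive samples (adjusted p = 0.487 by limma), with the highest value in sample 14. Of 16 effector and memory transcription factors 3 rose and 2 fell: Tbx21 (T-bet) rose by 0.97 and Bcl6 by 1.11, calls that ended with median scaling, and Eomes was not called (difference -0.42, SE 0.23).

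Of 20 tested receptors of the common gamma chain and interleukin 12 families with their signalling and SOCS feedback genes 8 fell and 3 rose (median -0.20), and 3 fell and none rose with median scaling. Socs3, the feedback inhibitor of interleukin 6 family signals, had 8.02, 8.82, 8.11 and 8.06 in LSEC-primed samples, against 10.95, 10.63, 10.96, 10.53 and 10.33 in naive samples, and fell by 2.43 (SE 0.21, adjusted p = 7.66e-07 by limma). All naive values were at least 1.5 above the highest LSEC-primed value. Il18r1, a chain of the interleukin 18 receptor, fell by 1.65, a call that ended with median scaling and without samples 14, 1 and 11 together. Il2ra, the high-affinity interleukin 2 receptor chain CD25, was above background on all 4 LSEC-primed arrays and on no naive array, but only at 6.56 to 6.78, and was at least 1.27-fold higher, a call that ended with median scaling. Il12rb2 had 6.47, 6.59, 8.24 and 7.65 in LSEC-primed samples and no naive array above background, with the higher values in samples 14 and 15. Its call (adjusted p = 0.028 by limma) ended with median scaling and when either of those samples, or naive sample 2, 11 or 13, was left out (adjusted p up to 0.106 by limma). In the TGF-beta pathway 3 of 10 tested genes fell and none rose (median -0.51), 30% called against 15.8% of all genes. The repressor Tgif1 fell by 1.98, Smad3 by 1.12 and the receptor Tgfbr2 by 0.74, the calls of Smad3 and Tgfbr2 ending with median scaling. Tgfb1 was not called (0.03, SE 0.36).

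Genes induced by interferon gamma rose while type I interferon-stimulated genes did not. Of 20 tested interferon-gamma-induced genes 12 rose and none fell (10.0% of all genes rose), with a median of 0.73, and 8 rose with median scaling and 10 without samples 14, 1 and 11 together. Igtp, an immunity-related GTPase, had 11.51, 11.82, 12.64 and 12.05 in LSEC-primed samples, against 9.87, 10.12, 9.58, 10.42 and 9.45 in naive samples, and rose by 2.11 (SE 0.23, adjusted p = 8.58e-06 by limma). Cxcl9, a ligand of CXCR3, had 9.57, 10.23, 9.75 and 10.40 in LSEC-primed samples, against 6.05 to 6.47 in naive samples, where 1 array was above background. The ubiquitin-like modifier Ubd was at least 9.68-fold higher, and the immunoproteasome subunit Psmb9 rose by 1.39, a call that ended with median scaling. The interferon gamma receptor chains, in the cytokine receptor list, moved the other way, and both of those calls ended with median scaling. Ifngr1, named after its values were seen, fell by 1.43 to 9.85 ± 0.53 in LSEC-primed cells, against 11.28 ± 0.23 in naive cells. Ifngr2, named on the same terms, fell by 1.28. Of 23 tested type I interferon-stimulated genes 6 fell and none rose (median -0.32). Without LSEC-primed sample 4 or naive sample 11 or 12, 3 fell, and with median scaling 2 fell. Oas2, an enzyme that activates RNase L, was above background on all 5 naive arrays and no LSEC-primed array and was at least 2.43-fold lower. Irf7, the master factor of the type I response, fell by 1.16 with groups that overlapped (6.82 to 7.58 in LSEC-primed, 7.42 to 8.72 in naive samples), a call that ended with median scaling and without samples 14, 1 and 11 together. Of 12 genes of MHC class I presentation 1 rose, the peptide transporter Tap2, by 0.88, a call that ended with median scaling. The 8.33% called was below the 15.8% of all genes.

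Promoters of 3 called interferon-gamma-induced genes are printed to show the gamma-activated sequence TTCNNNGAA. They are the 3 called members with the largest changes among the 4 whose RefSeq window, defined as above, holds it. The motif reads the same on both strands, and no overlap between its matches or with the cyclic AMP response element was counted. It was present in the windows of 1180 of 13186 tested genes (8.95%), in 6 of 16 interferon-gamma-induced genes with a window (4 of the 11 that were called), and in 4 of 17 type I interferon-stimulated genes. The sequences run 5′ to 3′ on the plus strand of GRCm38.p6 with matches in capitals, at chr11:58199306-58199605 for Igtp, chr11:53769764-53770063 for Irf1 and chr3:142496684-142496983 for Gbp5. Irf1, itself a transcription factor of the interferon response, and Gbp5, a guanylate-binding protein, are named by this motif. Irf1 rose by 0.77, a call that ended with median scaling and without naive sample 2, 12 or 13 or any 1 LSEC-primed sample (adjusted p up to 0.0965 by limma). Gbp5 rose by 0.64, a call that ended without LSEC-primed sample 4 (adjusted p = 0.060 by limma).
Igtp: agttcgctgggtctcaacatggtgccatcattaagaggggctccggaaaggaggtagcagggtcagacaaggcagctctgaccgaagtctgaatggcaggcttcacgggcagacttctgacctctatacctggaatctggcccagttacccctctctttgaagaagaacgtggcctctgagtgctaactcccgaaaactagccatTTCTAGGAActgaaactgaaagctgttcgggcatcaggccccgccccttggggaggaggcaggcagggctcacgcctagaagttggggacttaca
Irf1: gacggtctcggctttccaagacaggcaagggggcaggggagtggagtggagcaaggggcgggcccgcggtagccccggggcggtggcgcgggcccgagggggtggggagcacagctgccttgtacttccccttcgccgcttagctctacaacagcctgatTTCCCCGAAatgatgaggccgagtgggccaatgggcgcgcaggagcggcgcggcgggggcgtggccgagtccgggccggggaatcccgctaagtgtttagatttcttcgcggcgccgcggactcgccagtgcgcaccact
Gbp5: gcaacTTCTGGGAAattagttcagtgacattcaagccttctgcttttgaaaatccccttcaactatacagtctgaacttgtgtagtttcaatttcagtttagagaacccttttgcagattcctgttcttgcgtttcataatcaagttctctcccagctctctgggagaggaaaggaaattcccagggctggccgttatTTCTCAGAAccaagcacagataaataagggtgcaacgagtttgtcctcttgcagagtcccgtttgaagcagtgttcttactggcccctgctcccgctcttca

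Genes of division rose in LSEC-primed cells. Of 24 tested mitosis and spindle genes 12 rose and none fell (median 0.80), 8 with median scaling and 7 without samples 14, 1 and 11 together. The median was 0.43 without sample 14 and 0.40 without the 3 samples. Of 26 DNA replication genes 13 rose and 1 fell (median 0.53), 5 and none with median scaling, and 7 and 1 without those samples. Nusap1, a spindle protein, had 9.50, 9.44, 10.84 and 9.50 in LSEC-primed samples, against 8.08, 8.69, 7.80, 7.71 and 8.69 in naive samples. Sample 14 was the highest by more than 1 for Nusap1, and Plk1, the mitotic kinase, had its highest value there too (9.39, against 8.28 to 8.62 in the other LSEC-primed samples and 6.71 to 7.69 in naive samples). Nusap1 rose by 1.63 with sample 14 and by 1.29 without it, and Plk1 by 1.63 and 1.40. Without sample 14 alone, 12 mitosis genes and 11 replication genes rose, with a median of 0.44 over the replication list. Uhrf1, which maintains DNA methylation at replication, rose by 1.27, and Tyms, thymidylate synthase, rose by 1.15. The licensing factor Cdt1, which is destroyed in S phase, fell by 1.43 (SE 0.18), a call that ended with median scaling. Among 18 D cyclins, inhibitors and growth brakes 5 rose and 1 fell, or 1 and none with median scaling, and Ccnd1 (cyclin D1) rose by 1.07 with its highest value, 8.04, in sample 14, and by 0.82 without that sample.

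Of 18 tested glycolysis genes 9 rose and none fell (median 0.72), and 7 rose without sample 14 (median 0.48). With median scaling 2 rose: Tpi1, triosephosphate isomerase, and the aldolase Aldoc. Tpi1 had 11.58, 11.07, 12.14 and 11.39 in LSEC-primed samples, against 9.33, 9.32, 9.40, 9.05 and 8.96 in naive samples, and rose by 2.33 (SE 0.24, adjusted p = 4.97e-06 by limma). Of 27 oxidative phosphorylation genes 8 rose (median 0.25), of 24 proteasome genes 11 (median 0.38) and of 25 mitochondrial ribosome genes 9 (median 0.34), with no member of these 3 lists called lower. None of these 28 calls remained with median scaling, where the medians were 0.38, 0.52 and 0.42. Examples are Cycs (cytochrome c), which rose by 0.88, the 20S subunit Psma4, by 0.90, and Mrpl13, by 0.69. None of 15 tested cytosolic ribosomal proteins was called (median -0.02). The range was -0.24 to 0.32, and no member was called by limma in any of the other settings run.

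Among biosynthesis genes, the clearest gain was that of Asns, asparagine synthetase, a target of the stress factor ATF4. Asns had 8.87, 8.83, 8.50 and 8.65 in LSEC-primed samples, against 6.02 to 6.18 in naive samples, none of them above background, and was at least 5.26-fold higher (adjusted p = 4.62e-07 by limma). Eif4ebp1, a brake on translation, rose by 1.60, and Ddit4, an inhibitor of mTORC1, rose by 1.76 with 9.62 in sample 14 and 7.21 to 7.63 in the other LSEC-primed samples, and by 1.20 without sample 14. Dnajb9, a chaperone of the unfolded protein response, fell by 2.15. Atf4 itself and Xbp1 fell by 0.94 and 0.88, calls that ended with median scaling, and that of Atf4 also when LSEC-primed sample 14 or 15 or naive sample 1, 2 or 11 was left out (adjusted p up to 0.0898 by limma). In all, 4 of 19 genes of the unfolded protein response and ATF4 list rose and 4 fell, and 2 fell when LSEC-primed sample 14 or naive sample 1 was left out. Shmt1, serine hydroxymethyltransferase, rose by 1.85 and Mthfd2, of mitochondrial one-carbon metabolism, by 1.16. They were 2 of 3 gains among 18 nucleotide synthesis genes, with 1 loss. In that list 22.2% were called, against 15.8% of all genes. Of 11 amino acid transporters only Slc38a2 was called (9.09%, below the 15.8% of all genes), with a fall of 1.88 that was not called with median scaling. Of 11 genes around AMP deaminases and adenosine 3 rose and 2 fell. Of 18 sterol and fatty acid synthesis genes 3 rose, led by squalene epoxidase, Sqle (1.19), a share of 16.7% against 15.8% of all genes. Of 19 fatty acid oxidation genes 5 rose and 1 fell, the ligase Acsl3 (by 1.83), and of 19 tricarboxylic acid cycle genes 4 rose and 1 fell. The shares called were 31.58% and 26.32%, against 15.8% of all genes. Of these calls, the gains in fatty acid oxidation and all those of the tricarboxylic acid cycle ended with median scaling.

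**Figure D3:**
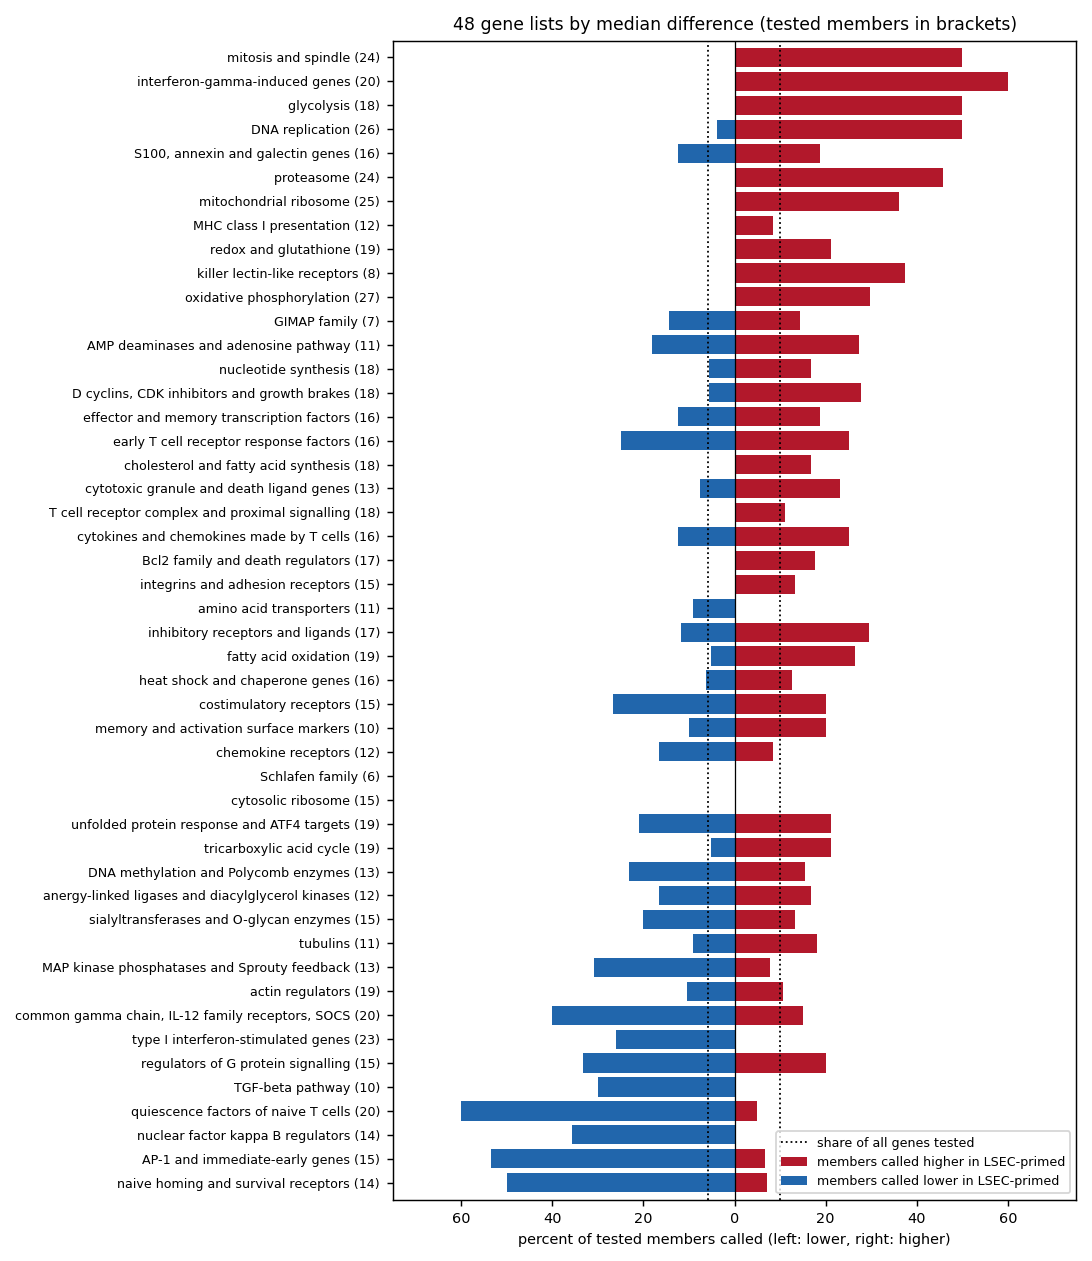
Percent of tested members of 48 gene lists called higher (red, to the right) or lower (blue, to the left) in LSEC-primed cells, ordered by the median difference of the list, with dotted lines at the shares of all genes (10.0% higher, 5.76% lower) and the number of tested members in brackets. Interferon-gamma-induced, mitosis, replication and glycolysis genes were called higher most often, and quiescence, immediate-early and naive homing genes lower most often.

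Of 15 regulators of G protein signalling 3 rose and 5 fell. Rgs1, which desensitises chemokine receptors, had 9.20, 9.06, 8.96 and 8.57 in LSEC-primed samples, against 11.06, 11.25, 11.14, 11.13 and 10.70 in naive samples, and fell by 2.11, while Rgs3 rose by 2.00 and Rgs16 was at least 1.83-fold higher. Gpr183, the oxysterol receptor EBI2, fell by 2.20, and its lowest value, 6.40, was that of sample 14 (7.88 to 8.15 in the other LSEC-primed and 9.31 to 10.27 in naive samples). Without sample 14 Gpr183 fell by 1.80. Of 17 Bcl2 family and death regulators 3 rose and none fell, a share of 17.65% near the 15.8% of all genes. The survival genes Bcl2a1b and Bcl2a1d rose by 2.17 and 2.15, but their sequences are nearly identical and the probes may not tell them apart. Bcl2 was not called (difference -0.63, SE 0.26). Without sample 14, 3 members of this list fell. Of 7 GIMAP GTPases, which act in lymphocyte survival, 1 rose and 1 fell (28.57%, against 15.8% of all genes). Gimap7 rose by 2.05 and Gimap6 fell by 0.56, and the call of Gimap6 ended with median scaling. With sample 14 left out, 3 GIMAP genes fell. None of 6 Schlafen genes was called.

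Of 11 tubulin-related genes 2 rose and 1 fell: Tubb6 rose by 1.98 and Tubb2b fell by 2.07, to 8.20 ± 0.46 in LSEC-primed cells, against 10.27 ± 0.11 in naive cells. Of 19 actin regulators 2 rose, including Synpo, and 2 fell (21.05% called, against 15.8% of all genes). Of 15 sialyltransferases and O-glycan enzymes 2 rose and 3 fell (33.33%, against 15.8% of all genes). St6gal1, which adds alpha2,6-linked sialic acid to glycoproteins, fell by 1.63 and St6galnac4 rose by 1.33. Of 13 DNA methylation and Polycomb enzymes 2 rose and 3 fell: the histone H3K27 demethylase Kdm6b fell by 1.49, and the DNA dioxygenases Tet1 and Tet3 fell by 1.06 and 0.51. Of 16 S100, annexin and galectin genes 3 rose, led by Anxa2 (1.09, a call that ended with median scaling), and 2 fell, the neutrophil genes S100a8 and S100a9. Both of these calls ended without samples 14, 1 and 11 together (adjusted p = 0.0523 and 0.126 by limma). Of 19 redox genes 4 rose and none fell (21.05%, against 15.8% of all genes), and 2 rose and 1 fell without sample 14. The metallothionein Mt1 had 9.12, 9.90, 11.16 and 9.87 in LSEC-primed samples, against 6.68 to 7.97 in naive samples, and rose by 2.73. Of 16 heat shock and chaperone genes 2 rose and 1 fell, a share near that of all genes, and none of the 3 calls stood with median scaling. Leaving out LSEC-primed sample 7 or 15 or naive sample 12 ended both gains, and leaving out LSEC-primed sample 4, 7 or 14 or naive sample 1, 2, 12 or 13 ended the fall.

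Transcripts of other cells were present on the arrays and moved with the groups. In such bulk samples fewer cells of a type and less RNA per cell cannot be told apart. In the list for the endothelium of liver sinusoids, 16 of 26 tested markers rose and none fell (median 0.94), and 18 to 19 were above background on each LSEC-primed array, against 3 to 7 on each naive array. The mean of the list was 7.25 to 7.62 in LSEC-primed and 6.13 to 6.28 in naive samples. Igfbp7, a secreted binding protein of endothelium, had 11.23, 11.79, 11.03 and 11.33 in LSEC-primed samples, against 6.06 to 6.34 in naive samples, and was at least 32.7-fold higher. Angpt2, a vascular growth factor, was at least 12.3-fold higher, and the endothelial markers Stab2, Clec4g, Kdr, Flt4 and Vwf were not called. In the stellate cell and fibroblast list 5 of 12 rose, none fell and 7 rose without sample 14, and the matrix proteoglycan Bgn was at least 7.57-fold higher. Their part in the results above was not tested. The gains of Cxcl9, Ubd, Serpina3f and Cxcl10, which many cell types make under interferon gamma, were measured on these same 4 arrays. Cxcl10, named after its values were seen, was at least 1.94-fold higher.

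Erythroid transcripts went the other way. Of 8 tested markers 5 fell and none rose, and the list mean was 5.90 to 6.05 in LSEC-primed and 7.86 to 9.43 in naive samples. Hbb-bs had 6.24, 6.31, 5.94 and 6.09 in LSEC-primed samples, against 12.09, 11.80, 12.20, 10.99 and 13.53 in naive samples, and Hba-a1 was at least 34.3-fold lower. The haemoglobin genes have near-identical copies that a probe may not separate. Of 10 neutrophil markers 3 fell and none rose, or 1 without samples 14, 1 and 11 together. No member of the lists for macrophages and Kupffer cells (12 tested), dendritic cells (11), hepatocytes (8), B cells (6) or platelets (6) was called by limma, although 1 hepatocyte marker fell without sample 14, and 2 macrophage and 2 dendritic cell markers fell without LSEC-primed sample 14 and naive sample 13 together, the samples with signal from Y-linked genes. The macrophage list mean was 8.09 in LSEC-primed sample 14, against 6.27 to 6.42 in the other LSEC-primed samples and 6.24 to 7.08 in naive samples, and the dendritic cell list had 7.87, against 6.60 to 6.62 and 6.46 to 7.43. Of 8 NK cell markers 1 rose (12.5%) and of 6 CD4 T cell markers 1 fell (16.67%), shares near the 15.8% of all genes. Both calls ended with median scaling and when LSEC-primed sample 4 or naive sample 11, among others, was left out.

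**Figure D4:**
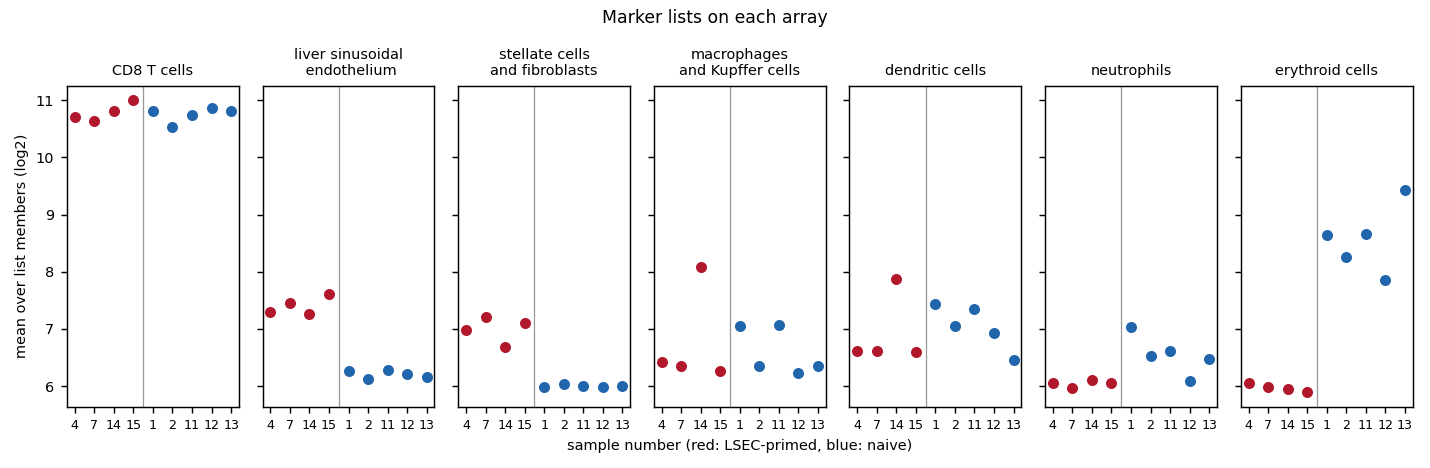
Mean log2 normalised intensity over the tested members of 7 marker lists on each LSEC-primed (red, left) and naive (blue, right) array, labelled by sample number. Endothelial and stromal means were higher on all 4 LSEC-primed arrays, erythroid means were higher on all 5 naive arrays, and LSEC-primed sample 14 stood above samples 4, 7 and 15 for the macrophage and dendritic cell lists.

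LSEC-primed values were set beside the effector and memory groups, which share the LSEC-primed arrays with the comparison above. The effector comparison called 2921 genes (17.7%), with 1565 (9.51%) higher in LSEC-primed cells and 1356 (8.24%) lower, and 1276 with median scaling, of which 398 (31.2%) were higher. Of 24 mitosis genes 19 were lower in LSEC-primed cells, of 18 glycolysis genes 16 were lower, none of either list was higher, and these counts were equal with median scaling. Cxcr3 had 9.46 ± 0.28 in LSEC-primed, 7.12 ± 0.29 in effector, 10.21 ± 0.59 in memory and 7.06 ± 0.14 in naive cells (SD, n = 4, 5, 3 and 5), and the LSEC-primed minus effector difference was 2.34 (SE 0.20, adjusted p = 3.34e-07 by limma). Klf2 lay between effector and naive cells, at 10.38 ± 0.88 in LSEC-primed, 7.95 ± 0.64 in effector and 13.16 ± 0.09 in naive cells, and was higher by 2.44 (SE 0.34) than in effector cells. For Il2ra that difference was -2.76 (SE 0.11), for Asns -2.62 (SE 0.22) and for Xcl1 1.39 (SE 0.30), the call of Xcl1 ending with median scaling. For Synpo, Hivep3, Cldn10 and Egr3 it lay between 1.83 and 2.24, and Dusp10 and Ampd1 did not pass the test (-0.13, SE 0.11, and 0.07, SE 0.13). Kit (-0.63, SE 0.45), Lag3 (-0.88, SE 0.50) and Cables1 (-0.46, SE 0.22) were not called either, so their gains over naive cells were not particular to LSEC-primed cells. With median scaling Cables1 was called lower than in effector cells.

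The memory comparison called 2554 genes (15.5%), with 1577 (9.58%) higher in LSEC-primed cells and 977 (5.93%) lower. With median scaling 3361 were called, of which 3273 were higher, and with only LSEC-primed and memory samples in the fit 1006 were called. The memory arrays had mean intensities of 96.74 to 266.2, and quantile normalisation and median scaling place them differently. Differences from memory cells are therefore given only for genes with the same call in both. The memory value of Cxcr3 above is on the quantile-normalised scale, and its call against memory cells ended with median scaling. Ccl5 had 8.81 ± 0.62 in LSEC-primed and 14.33 ± 0.18 in memory cells (difference -5.51, SE 0.25, adjusted p = 2.37e-10 by limma). Ifng was lower by a difference of -3.98 (SE 0.23), and Gzmm by -3.76 (SE 0.12). Synpo and Kit were higher in LSEC-primed than in memory cells by 3.18 (SE 0.28) and 3.59 (SE 0.52), and Ccr7 by 1.96 (SE 0.33).

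**Figure D5:**
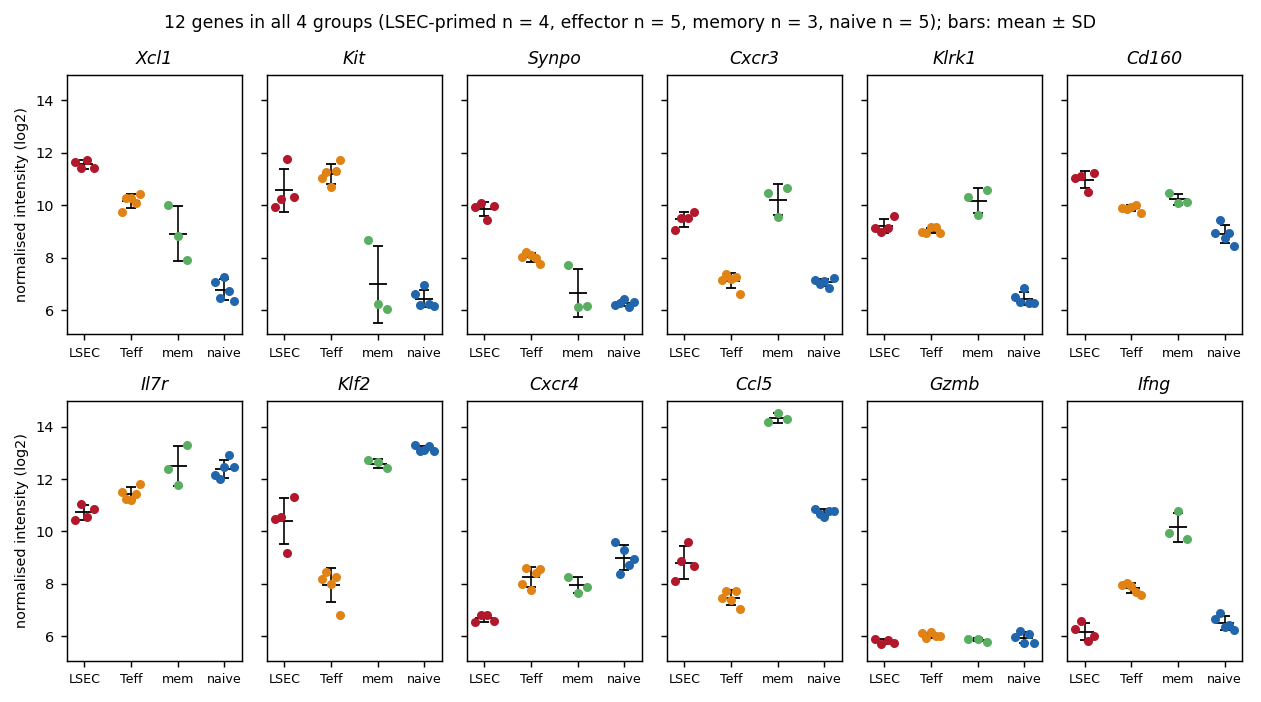
Log2 normalised intensity of 12 genes in the LSEC-primed (LSEC, n = 4), effector (Teff, n = 5), memory (mem, n = 3) and naive (n = 5) samples, with mean ± SD in black. Xcl1 and Synpo are highest in LSEC-primed cells, and Klf2 lies between the effector and naive values. The probe for Gzmb is at background in every group, so no level of Gzmb can be given. All values are quantile normalised. The LSEC-primed against memory calls of Cxcr3, Klrk1, Il7r, Klf2 and Cxcr4 ended with median scaling. So did the calls of Xcl1, Cd160 and Ccl5 against effector cells.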

How the data were processed

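RNA of 17 samples was measured on Illumina mouse bead arrays of 45281 probes. The deposited table holds non-normalised probe intensity on a linear scale, with no detection p-values, and 3 of its columns match no label and were not used. The authors' processed intensity values were deposited too, and have the same quantiles on every array, as the values show; the software is not given in the sources used here. Samples were grouped by their titles. Intensities were background corrected (normexp, offset 50), quantile normalised and taken to log2 with limma 3.58.1 in R 4.3.3. Probes above the array median on at least 3 arrays were kept, and a gene with several was represented by its brightest on average. Gene names came from the platform annotation, in which 34885 probes have 1 symbol, 18 several and 10378 none. A linear model of 4 groups over 17 arrays was fitted (lmFit, eBayes), and p-values were adjusted by the Benjamini-Hochberg method. The background level of an array was the mode of its log2 values plus 3 SD of the side below the mode. Precision is limited by how few arrays there are. The fitting step alone was run on simulated log2 values, with independent normal noise of the same SD per feature in every group. Normalisation and outlying arrays were not simulated, so that run cannot speak for either.

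Genes were named by a rule: the largest changes and smallest p-values among called genes whose groups did not overlap, up to 3 called members per direction of each list, and a set of landmark genes; the others are marker genes, are named by a motif, or carry a remark. The members and the lists were chosen with earlier results of these data known. Normalisation, background correction, filters, probe choice, variance model and the samples fitted were varied. Promoter windows came from RefSeq, build GRCm38.p6.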

Additional observations from a re-analysis of the deposited data

Results flagged for a closer look

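Of 390 groups of values tested for 1 sample lying far from the rest of its group, 15 were found (3.85%). Of these, 12 were among LSEC-primed and 3 among naive samples. Taken over both groups together, the share found was below the about 1 in 20 that chance gives. The groups of values share arrays and genes and are not independent, so that share does not speak for either group alone. In 8 of the 15 the sample was LSEC-primed sample 14. Its mean was 8.09 for the macrophage list, where the nearest LSEC-primed sample had 6.42, and 7.87 for the dendritic cell list, where the nearest had 6.62. It was also far from the rest for Nusap1 (10.84, nearest 9.50), Gpr183 (6.40, nearest 7.88), Cd163l1 (6.12, nearest 7.32), Klrb1c (6.23, nearest 6.71), the Bcl2 family mean (8.68, nearest 8.54) and the killer lectin-like receptor mean (7.31, nearest 7.63).

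LSEC-primed sample 7 was apart for Socs3 (8.82, nearest 8.11) and for Tyms (7.42, nearest 8.32). LSEC-primed sample 15 had the highest AP-1 and immediate-early mean (7.50, nearest 7.21), and LSEC-primed sample 4 the lowest mean of memory and activation markers (8.66, nearest 8.81). Among naive samples, sample 11 was apart for Tgif1 (11.48, nearest 10.87), sample 12 for the TGF-beta pathway mean (9.12, nearest 8.88) and sample 2 for the DNA methylation and Polycomb mean (8.67, nearest 8.57).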

How the results depend on the processing

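The number of genes called between LSEC-primed and naive cells was 861 with median scaling and 1709 without LSEC-primed sample 14 and naive samples 1 and 11 together, a setting chosen after seeing the data, against 2601 as reported. It was 2224 to 2456 when 1 replicate was left out in turn, and 2198 to 2914 under the other alternatives. Against effector cells median scaling gave 1276, with 31.2% higher in LSEC-primed cells, where quantile normalisation gave 53.6%. Against memory cells cyclic loess gave 1210, array weights 1658 and a fit of these groups alone 1006, the first 2 of these chosen after seeing the data, and median scaling gave 3361, with 97.4% higher where quantile normalisation gave 61.7%. The cause of these shifts was not tested. Of 126 called genes that the naming rule chose and the text names, 95 were still called with median scaling, 115 without the 3 samples together and 122 to 126 in each other setting. None changed sign. Without the 3 samples together the calls of Cd28, Il18r1, Irf7, Cd44, Rel, S100a8 and S100a9 were among those that ended. No paired analysis was possible because the groups share no replicate numbers. A probe at background on all arrays of both groups, such as that of Gzmb, cannot show a difference.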
